A study of Drosophila melanogaster with 2 samples.

Results

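Intronic peaks away from any transcription start site (TSS) were examined in a chromatin immunoprecipitation (ChIP-seq) map of Hr96 in Drosophila melanogaster. A peak was counted where its summit lay over 500 bp from every annotated TSS, inside a gene and in no annotated exon. Of the 3607 peaks that the authors kept by the irreproducible discovery rate (IDR), 922 met this rule, a share of 25.6%. The remaining 2685 peaks comprised 2325 with a summit within 500 bp of a TSS (promoter peaks), 258 outside every gene (intergenic peaks) and 102 in exons.

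All samples came from 1 group of whole adult females of a transgenic line that stably expresses Hr96 with a C-terminal green fluorescent protein, and the age of the flies is given as unknown. Chromatin was recovered through the tag, with an antibody to GFP, in 2 biological replicates numbered 1 and 3. Every fly carried the fusion, so Hr96 binding and signal from other sources cannot be told apart, and in whole animals the cell type in which a site was occupied cannot be told. For each replicate and for the pool of both, 30000 regions were listed on dm6, true peaks and background together, each scored against 1 shared control. The 3607 IDR peaks were exactly the 3607 strongest pooled regions, so the weaker pooled regions used below lie under 1 signal limit. The depth behind each value is unknown, as no source used here states read totals.

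Hr96 is an orphan nuclear receptor, a zinc-finger transcription factor known in flies for roles in cholesterol and triacylglycerol homeostasis and in the response to foreign compounds. Introns of fly genes, above all the long introns near the 5′ end, hold many known enhancers and also alternative promoters and insulator elements. A ChIP-seq peak inside an intron marks DNA recovered with the tagged protein, which may be bound directly or through other proteins.

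Summit windows of 101 bp are printed here in the plus-strand sense, from the RefSeq copy of the dm6 assembly, so that the sequence at the sites described below can be read directly. The first set holds the strongest 3 intronic peaks, in Tlk at chrX:3742181-3742281, CG11050 at chr2L:6612653-6612753 and CG32772 at chrX:4910330-4910430, with the 11 bases around the summit in capitals.
Tlk: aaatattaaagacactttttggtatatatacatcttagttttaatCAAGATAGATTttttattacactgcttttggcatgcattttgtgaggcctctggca
CG11050: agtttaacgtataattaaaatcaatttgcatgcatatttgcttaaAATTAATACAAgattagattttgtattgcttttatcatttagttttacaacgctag
CG32772: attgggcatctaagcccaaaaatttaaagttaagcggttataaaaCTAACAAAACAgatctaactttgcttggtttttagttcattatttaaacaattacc

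The next set holds windows with the letters CCACTGT or ACAGTGG, the same word on the other strand, a word shared by the leading words of a search described below, in capitals. They lie in introns of Lk6, a kinase of the translation factor eIF4E (chr3R:11761013-11761113), Ubr3, an E3 ubiquitin ligase (chrX:7938370-7938470), simj, a subunit of the NuRD chromatin complex (chr3L:10683050-10683150) and CHES-1-like, a forkhead factor (chrX:7700317-7700417 and chrX:7703704-7703804).
Lk6: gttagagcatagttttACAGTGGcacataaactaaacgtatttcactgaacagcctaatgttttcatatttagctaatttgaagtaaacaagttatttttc
Ubr3: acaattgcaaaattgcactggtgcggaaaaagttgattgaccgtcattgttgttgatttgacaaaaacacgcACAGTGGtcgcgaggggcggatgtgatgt
simj: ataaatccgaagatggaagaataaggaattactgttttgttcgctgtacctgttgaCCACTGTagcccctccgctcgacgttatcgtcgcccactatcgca
CHES-1-like, site a: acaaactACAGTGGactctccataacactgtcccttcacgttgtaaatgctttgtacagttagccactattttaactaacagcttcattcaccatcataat
CHES-1-like, site b: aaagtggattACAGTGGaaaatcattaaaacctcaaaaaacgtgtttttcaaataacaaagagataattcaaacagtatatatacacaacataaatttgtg

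The last set shows motifs of known factors whose frequencies are compared below. The windows in ush (chr2L:485820-485920) and Eip75B (chr3L:18019792-18019892) hold the CTCF core, the one in Stt3A, an oligosaccharyltransferase subunit (chrX:21053269-21053369) holds the DRE core, and those in kay, the fly Fos (chr3R:29773909-29774009) and Gpdh1, a glycerol-3-phosphate dehydrogenase (chr2L:5944692-5944792) hold the nuclear receptor core, each in capitals.
ush: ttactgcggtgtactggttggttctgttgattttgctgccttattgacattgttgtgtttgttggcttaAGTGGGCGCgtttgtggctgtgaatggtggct
Eip75B: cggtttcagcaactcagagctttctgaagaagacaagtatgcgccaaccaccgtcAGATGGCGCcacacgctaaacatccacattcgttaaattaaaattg
Stt3A: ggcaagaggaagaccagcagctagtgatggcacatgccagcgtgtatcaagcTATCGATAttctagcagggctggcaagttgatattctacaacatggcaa
kay: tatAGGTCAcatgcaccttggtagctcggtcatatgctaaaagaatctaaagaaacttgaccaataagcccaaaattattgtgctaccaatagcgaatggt
Gpdh1: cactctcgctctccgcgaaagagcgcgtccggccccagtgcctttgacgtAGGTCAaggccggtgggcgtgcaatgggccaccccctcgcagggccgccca

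The intronic peaks were weaker than the promoter peaks, and their median lay near that of the intergenic ones. The signal value is the strength the authors' peak caller gave each peak against the control, on a scale set within each list. Its median in the pooled data was 91.5 for intronic peaks (quartiles 71.8 and 139.4, highest 1758), against 110.2 for promoter peaks (quartiles 78.1 and 187.5, highest 2692) and 87.7 for intergenic peaks (quartiles 67.7 and 141.6, highest 828.9). The 3 distributions overlapped over most of their range. Above the median of the whole IDR list, 102.6, lay 391 of the 922 intronic peaks (42.4%, 95% interval 39.2 to 45.7), against 1412 of 2685 other IDR peaks (52.6%, 50.7 to 54.5), where the share over the whole list is 49.99% by construction. The odds ratio was 0.664 (two-sided Fisher's exact test, p = 1.6e-07 adjusted over 3 comparisons). By the same exact test the odds ratio was 0.611 against promoter peaks alone (adjusted p = 1.0e-09). It was 1.01 against intergenic peaks (exact test, adjusted p = 1.00), with overlapping intervals of 39.2 to 45.7% for intronic and 36.1 to 48.5% for intergenic peaks. These tests are across peaks of 1 list and measure no spread between animals. The strongest intronic peaks nevertheless reached the top of the list, since 18 of the 100 strongest IDR peaks were intronic.

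**Figure D1:**
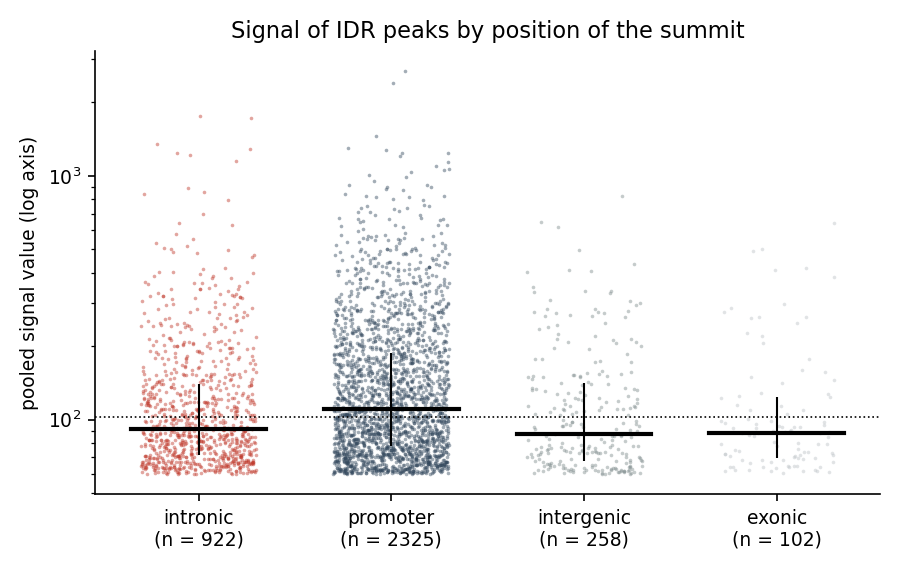
Pooled signal value of each IDR peak (log axis) by the position of its summit. Points are peaks, thick bars medians, thin vertical lines quartiles, and the dotted line is the median of all 3607 peaks; the intronic median of 91.5 lies under that line and the promoter median of 110.2 above it.

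The 20 strongest intronic peaks lay in genes of various known functions and in uncharacterised genes, and no function was tested for. The strongest, at chrX:3742231 in Tlk, the gene of the Tousled-like kinase, had a pooled signal of 1758, and its signals were 1133 in replicate 1 and 626.9 in replicate 3. It ranked 3 among all regions of each replicate, and it lay 2334 bp from the nearest TSS. The peak in CG11050 had a pooled signal of 1723, with 1062 in replicate 1 and 664.6 in replicate 3, and its summit lay in an intron of only 140 bp. Both replicates thus placed these 2 sites within their strongest 5 regions. Pooled signals of 1346 in CG32772, 1288 in CG32486, 1241 in Lk6, 1222 in CG9663 and 1148 in norpA followed. norpA encodes the phospholipase C of phototransduction. The peak shared by HmgD and HmgZ, which encode small HMG-box chromosomal proteins, had 887.7.

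Among the remaining 12, pooled signals ran between 858.1 in Adf1 and 500.5 in dnr1. Adf1 encodes a transcription factor first purified as an activator of Adh, and dnr1 an E3 ligase that restrains immune signalling. Also among the 12 were Trl (839.8, the GAGA factor), ush (799.1, a zinc-finger partner of GATA factors) and upSET (552.2, a SET-domain chromatin protein). The peak in for, the cGMP-dependent protein kinase gene of the rover and sitter foraging types, had 700.1. The peak in Zw, glucose-6-phosphate dehydrogenase, had 642.4. CG12769 (626.4), CG2991 (576.3), CG4496 (530.4), Tob (515.3) and KCNQ (506.8, a voltage-gated potassium channel) held the others. All 20 had a summit within 100 bp among the strongest peaks of both replicates, and the worst rank among them was 412 in replicate 1 and 185 in replicate 3. In 14 of the 20 the summit was in a first intron, in 3 in a later one, and in 3 the order depended on the transcript.

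Most intronic peaks, like most other IDR peaks, were seen in both replicates, although their order in strength was only loosely shared. Of the 922, 742 (80.5%) had a summit within 100 bp in both lists of 30000 regions, 97 in the list of replicate 1 alone, 73 in that of replicate 3 alone, and 10 in neither. Of the other IDR peaks, 2146 of 2685 (79.9%) were in both lists. With a limit of 200 bp, 838 (90.9%) were in both lists, and only 1 in neither. Over the 742, the median signal was 61.3 in replicate 1 (range 14.6 to 1133) and 36.6 in replicate 3 (range 9.72 to 664.6). The median log2 ratio of replicate 1 over replicate 3 was 0.90 (SD 0.83 across peaks), and 635 peaks had the higher value in replicate 1. The scales were set per library, so this offset cannot be read as a difference in binding, and it was 0.91 for the other IDR peaks. Spearman's rank correlation between the replicates was 0.494 across the 742 intronic peaks and 0.582 across 2146 other IDR peaks, as a description of peaks that share their libraries and control and were selected by pooled signal.

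**Figure D2:**
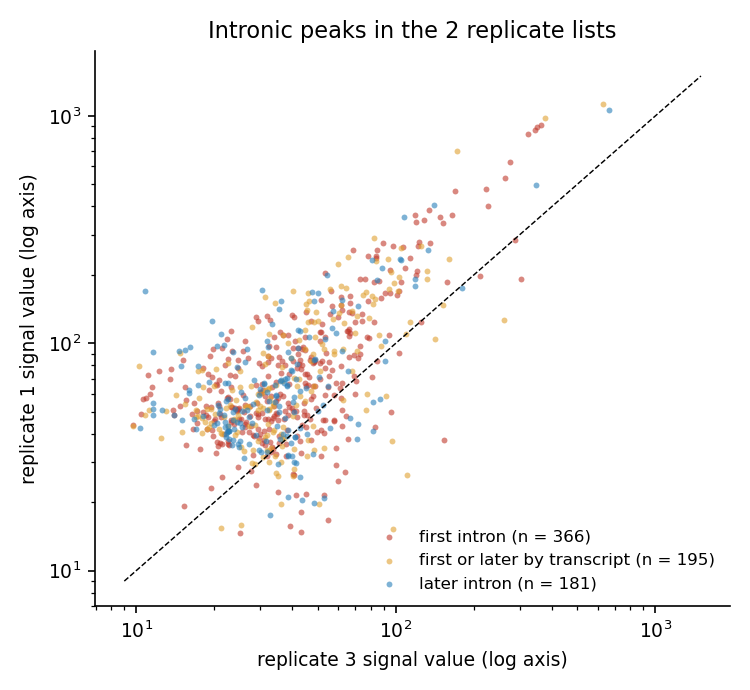
Signal value in replicate 1 against replicate 3 (log axes) for the 742 intronic peaks found in both lists, coloured by intron order; the dashed line marks equal values. Most points lie above the line, and the peaks in Tlk and CG11050, over 1000 in replicate 1 and over 600 in replicate 3, are the strongest in both.

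A stricter comparison asked whether a peak was matched within 100 bp among the strongest 3607 regions of both replicates. This held for 435 intronic peaks (47.2%, 43.9 to 50.5), against 1395 other IDR peaks (52.0%), where the share over the whole list was 50.7%. The odds ratio was 0.826 (two-sided Fisher's exact test, adjusted p = 0.0196). By the same exact test it was 0.764 against promoter peaks (adjusted p = 0.00182) and 1.32 against intergenic peaks (adjusted p = 0.0562). Signal moved with this result. With the IDR list cut by rank into 5 equal groups, the group with signals of 121.9 to 198.8 had 130 of 158 intronic peaks (82.3%) matched, against 72.8% of the other peaks. In the strongest group the shares were 92.4% for intronic and 92.0% for other peaks, and in the weakest 1.36% for intronic and 4.20% for other peaks. In the same exact test, the call ended with a TSS distance of 250 bp (odds ratio 0.875, p = 0.0654), and the direction turned among the strongest 1803 IDR peaks (1.12, p = 0.438) and when a match anywhere in each list was accepted (1.04, p = 0.738).

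First introns held more of the peaks than their sequence would give. Summits were in a first intron of every transcript over them for 451 peaks (48.9%), in a later intron of all for 224 (24.3%), and in an intron that is first in some transcripts and later in others for 247 (26.8%, called mixed). Leaving out the mixed ones, 66.8% of intronic peaks were in first introns (451 of 675, 63.1 to 70.4), against 36.6% of intronic regions of the pooled list outside the IDR list (3206 of 8752, 35.6 to 37.7). The odds ratio was 3.48 (two-sided Fisher's exact test, p = 1.5e-52). The odds ratio was 2.21 when mixed introns were counted as later (exact test, p = 1.3e-29). Eligible bases are the intronic bases where a summit would count, and 31.5% of them were in first introns with mixed introns left out, or 26.1% with mixed introns kept in the total. The density was 32.7 peaks per Mb in first introns and 7.49 per Mb in later ones, beside 17.5 per Mb over all 52.8 Mb of eligible sequence. Of the 224 peaks in later introns, 146 (65.2%) were in intron 2 by the lowest number any transcript gives, and 17 in intron 6 or beyond.

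The excess in first introns went along with closeness to a TSS but was also present within 4 of 5 bands of distance. The median distance from summit to nearest TSS was 1825 bp for the intronic IDR peaks (quartiles 955 and 4227) and 4874 bp for the weaker intronic regions. In the band of 500 to 1000 bp, 81.8% of IDR peaks were in first introns, against 64.9% of weaker regions (odds ratio 2.43, exact test, p = 1.0e-05 adjusted over 5 bands by Benjamini-Hochberg). By the same exact test, the shares in the band of 1000 to 2000 bp were 79.2% of IDR peaks and 57.1% of weaker regions (odds ratio 2.86, adjusted p = 1.0e-07). Between 2000 and 5000 bp they were 62.9% of IDR peaks and 43.0% of weaker regions (exact test, 2.25, adjusted p = 7.2e-07), and between 5000 and 10000 bp 47.7% of IDR peaks and 32.2% of weaker regions (1.92, adjusted p = 0.00441). Beyond 10000 bp they were 20.4% of IDR peaks and 16.0% of weaker regions, with only 54 IDR peaks to compare (1.35, Fisher's exact test, adjusted p = 0.353). The density was 56.9 peaks per Mb in the nearest band, lower in each next one, and 4.59 per Mb in the farthest. The farthest summit of all, in mgl, a lipoprotein receptor gene, lay 44617 bp from any TSS and had a signal of 72.7.

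Intronic peaks were spread over introns of all sizes, and per Mb they were densest in introns of 1 to 10 kb. The shortest annotated intron over the summit had a median length of 7392 bp (95% interval 6658 to 8344, quartiles 3164 and 15013), against 11374 bp for the weaker intronic regions and 13243 bp for the intron over the median eligible base. Introns under 1 kb held 12.4 peaks per Mb, those of 1 to 3 kb 30.1, of 3 to 10 kb 26.5, of 10 to 30 kb 17.1, and those of 30 kb or more 6.56. Of the 4.67 Mb of eligible sequence under 1 kb, 3.74 Mb was in later introns. Within first introns alone the density was 48.4 per Mb under 1 kb, 56.1 at 1 to 3 kb and 43.2 at 3 to 10 kb. It was 27.6 at 10 to 30 kb and 8.90 at 30 kb or more. Within later introns the density stayed between 3.73 and 10.8 per Mb in every class. Thus first introns were denser than later ones in each of the 5 length classes, and the exact Poisson intervals overlapped in none of them. With the longest annotated intron in place of the shortest, the median was 10792 bp.

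**Figure D3:**
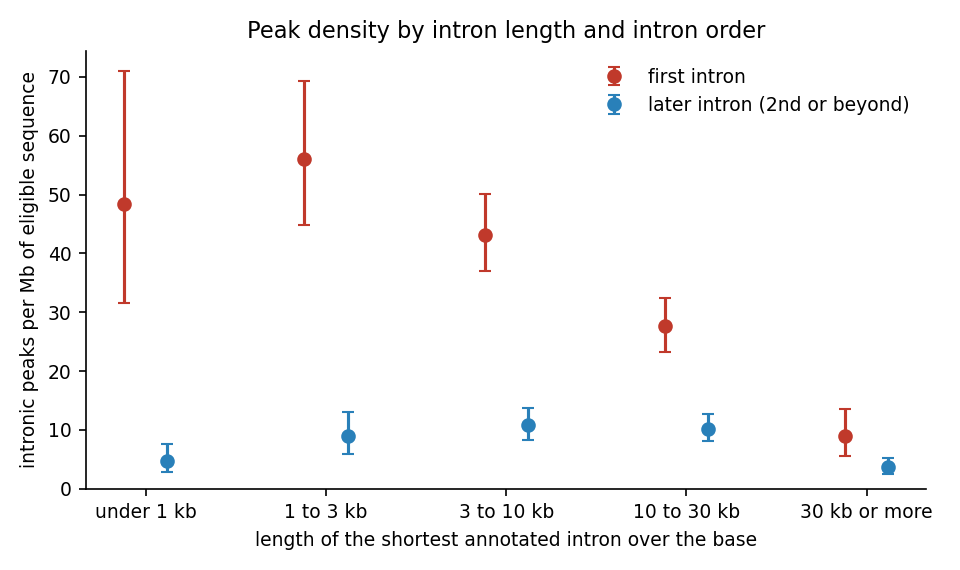
Intronic IDR peaks per Mb of eligible sequence, by length of the shortest annotated intron and by intron order. Points are densities and bars exact Poisson 95% intervals, which cover counting error only; first introns stand above later ones in every length class, with 56.1 against 8.95 per Mb at 1 to 3 kb.

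Within an intron, summits leaned towards the 5′ side. With each intron cut into 5 equal lengths from its 5′ to its 3′ end, 27.0%, 24.6%, 20.6%, 16.1% and 11.7% of summits fell in each, while the eligible bases were split more evenly, with 21.6% at the 5′ end and 18.4% at the 3′ end. The nearest TSS belonged to the host gene for 745 peaks (80.8%) and to another gene for 177. The median distance to the nearest exon was 974 bp, and 24 summits (2.60%) were within 100 bp of an exon.

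The limit of 500 bp cut through a continuous spread of distances. Just inside it were peaks in Pen at 503 bp (signal 76.7), CG7702 at 503 bp (63.5) and Gs2 at 505 bp (276.5), and just outside it peaks over CG11151 and Grip91 at 496 bp (278.0), spri at 492 bp (149.1) and CG9981 at 492 bp (61.4). In all, 569 promoter peaks had a summit that was also in an intron and in no exon, of which 50 were over 400 bp from the TSS.

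The 922 peaks lay in 640 host genes, 6.71% of the 9534 genes with any eligible intronic sequence. Of the hosts, 621 were protein-coding, 18 were noncoding RNA genes and 1 was a pseudogene, and 64 peaks lay in more than 1 gene. Hosts had a median of 10.1 kb of eligible sequence, against 0.386 kb for other genes. The share of genes that were hosts went with that length: 0.574% of genes with under 1 kb, 8.56% with 1 to 3 kb, 15.9% with 3 to 10 kb, 22.4% with 10 to 30 kb and 31.1% with 30 kb or more.

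Several genes carried a row of peaks. Of the hosts, 192 had 2 or more (2.01% of the genes with eligible sequence), 76 had 3 or more and 18 had 5 or more. The 192 genes together held 513 of the 922 peaks (55.6%). Neighbouring summits in a gene were a median of 2300 bp apart (quartiles 908 and 7190), and 50 of 352 spacings were under 500 bp. Counting summits under 500 bp apart as 1 site left 174 genes with several sites.

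CHES-1-like, on the X chromosome (7682338 to 7709385, minus strand), had the most. Its 12 peaks spanned 15.1 kb of first introns, at 0.803 per kb of eligible sequence, with pooled signals of 66.7 to 388.6. The strongest, at chrX:7707060, had 197.4 in replicate 1 and 211.1 in replicate 3. The one at chrX:7698411 had a pooled signal of 345.3, with 185.6 in replicate 1 and 157.0 in replicate 3. Of the 12, 9 were matched among the strongest regions of both replicates, and 2 of the windows printed above, sites a and b, are among them. Merging summits under 500 bp apart left 9 sites.

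The noncoding gene lncRNA:CR44357 had 11 peaks and CG1677, which lies within it on the same strand, had 8, all of them counted for both genes. Their densities were low, at 0.0570 per kb in lncRNA:CR44357 and 0.0881 per kb in CG1677. shn, which encodes a zinc-finger protein of the Dpp pathway, had 10 peaks with signals of 64.5 to 180.0, 7 of them matched in both replicates. tara, a transcriptional coregulator gene, had 9 peaks in first introns (62.2 to 158.9, 5 matched). sbb, a corepressor gene, had 8 (60.8 to 135.1, 4 matched). None of the peaks of these 5 genes was among the strongest 100 intronic peaks, against 3 of CHES-1-like.

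There were 4 genes with 6 peaks. In Tlk the summed signal of 2404 came largely from the one peak of 1758, and 1 of the 6 was matched in both replicates. Mnt, which encodes a bHLH antagonist of Myc, had 6 first-intron peaks with signals of 64.9 to 328.2, 4 of them matched. The strongest, 1061 bp from the TSS, had 241.1 in replicate 1 and 78.4 in replicate 3. vri, a bZIP repressor of the circadian clock, had 6 first-intron peaks of 67.6 to 200.4, 3 of them matched. Tet, a dioxygenase gene, had 6 of 62.3 to 244.4, of which 1 was matched.

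**Figure D4:**
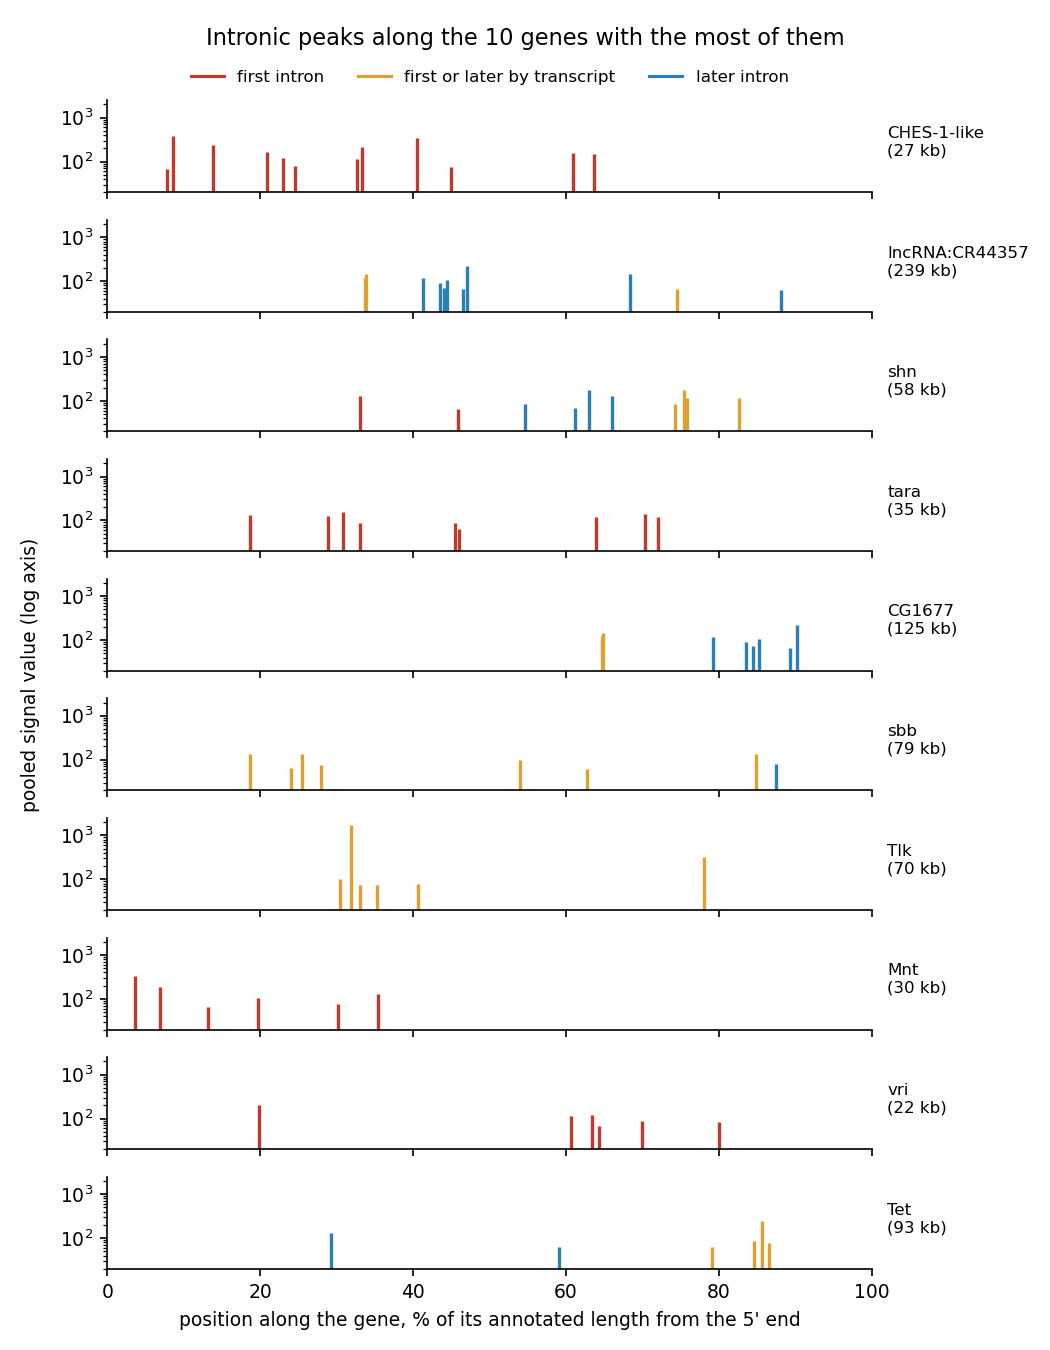
Intronic IDR peaks along the 10 genes with the most of them, as pooled signal value (log axis) against position in percent of the gene's length from its annotated 5′ end, with the length in kb beside the name. Colours give intron order; the peaks of CHES-1-like, tara, Mnt and vri are all in first introns, and Tlk has 1 peak of 1758 above 5 weaker ones.

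Hosts often had a promoter peak as well. An IDR summit lay within 500 bp of a TSS for 338 of the 640 hosts (52.8%, 48.9 to 56.7), against 1694 of the 8894 other genes with eligible sequence (19.0%, 18.2 to 19.9) and 21.3% of all 9534. The shares differed in the same direction in each class of eligible length. With under 1 kb they were 29.4% of hosts (10 of 34, 15.1 to 47.5) and 17.9% of other genes, a share inside the hosts' interval. They were 51.0% of hosts and 23.9% of others with 1 to 3 kb, and 56.9% of hosts and 21.0% of others with 3 to 10 kb. With 10 to 30 kb they were 52.0% of hosts and 19.9% of others, and with 30 kb or more 55.6% of hosts and 15.4% of others. No test was made, since genes that share a neighbourhood are not independent. Among the 10 genes with the most intronic peaks, Mnt and lncRNA:CR44357 had no promoter peak and the other 8 did.

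The kinds of host gene were described with 15 lists of genes drawn up from textbook knowledge of the fly, counted over members with eligible sequence and beside the 6.71% of all such genes. The list members mostly have more intronic sequence than the average gene, so the count that the hosts' share of each length class would give stands beside each. Of 24 nuclear receptor and ecdysone response genes, 9 were hosts, beside 5.09 at the length-class share. Hr4, an ecdysone-induced orphan receptor, had 5 peaks with a strongest signal of 397.2, and that peak had 257.4 in replicate 1 and 133.4 in replicate 3. EcR, the ecdysone receptor itself, had 3 peaks (strongest 254.7), and br, an early ecdysone response transcription factor, had 1 (212.9). Of 44 sterol and lipid metabolism genes, the class for which Hr96 is best known, 12 were hosts, beside 4.61. They included Lsd-2, a perilipin of the lipid droplet (317.9), Baldspot, a fatty acid elongase (203.0), and Acsl, an acyl-CoA synthetase with 4 peaks (strongest 200.6).

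Lists of signalling and clock genes gave the following counts. Of 47 cyclic nucleotide and kinase genes, 17 were hosts, beside 9.20 at the length-class share, led by Tlk, norpA and for. Of 70 receptors and transducers of signalling pathways, 21 were hosts, beside 10.8. They were led by mam, the Notch coactivator (strongest 344.9), Dad, the inhibitory Smad (166.4), and ex, an upstream member of the Hippo pathway (132.1). Of 34 insulin and TORC1 genes, 7 were hosts, beside 3.52: InR, the insulin receptor, had 2 peaks (strongest 344.8, with 209.1 in replicate 1 and 132.3 in replicate 3), ImpL2, a secreted binder of insulin-like peptides, had 2 (190.8), and SNF4Agamma, the gamma subunit of AMP-activated kinase, had 3 (145.6). Of 19 circadian clock genes, 7 were hosts, beside 2.98, led by norpA, Pdp1 (296.7, a bZIP activator) and vri.

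Regulators of transcription, chromatin and RNA made up 3 further lists. Of 55 developmental transcription factors, 15 were hosts, beside 12.4, led by ush, lola (277.4) and shn. Of 59 chromatin regulators, 9 were hosts, beside 4.74, led by Trl, Kdm2 (359.1, a histone demethylase) and ph-p (273.3, a Polycomb group protein). Of 52 genes of RNA-binding and splicing proteins, 13 were hosts, beside 7.80, led by spen (418.9), elav (401.1) and Rbp9 (239.6). The peak in elav also lay in arg and lncRNA:enrr. elav and Rbp9 encode neuronal RNA-binding proteins of 1 family.

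Lists of neuronal and structural genes gave counts below or near the length-class count. Of 56 neuronal adhesion and axon guidance genes, 5 were hosts, beside 14.5 at the length-class share, although their median eligible length of 33.1 kb was the longest of the 15 lists. These were kirre, an adhesion protein of muscle founder cells and neurons with 5 peaks in 333.2 kb (strongest 338.1), Fas3 (157.8), caps (126.2), Fas2 and dpr6. The strongest peak of kirre also lay in CG32795. Of 57 ion channel and neurotransmitter receptor genes, 7 were hosts, beside 12.2, led by KCNQ, NaCP60E (84.8) and Ih (81.5). Of 31 muscle structure genes, 5 were hosts, beside 4.69, led by Dys, the fly dystrophin (164.1), Msp300 (123.0) and Zasp66 (86.8). Of 36 oogenesis genes, 1 was a host, BicD (87.0), beside 2.05, and of 21 cytosolic ribosomal protein genes, whose introns are short, none was, beside 0.121. Genes within a list and between lists overlap, and these counts were not tested.

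The X chromosome had a larger share of intronic peaks than the autosomes. Of 620 IDR peaks on the X, 208 were intronic (33.5%, 29.8 to 37.4), against 714 of 2987 on the autosomes (23.9%, 22.4 to 25.5), an odds ratio of 1.61 (two-sided Fisher's exact test, p = 1.1e-06, a comparison chosen after the counts were seen). The density was 20.4 per Mb of eligible intronic sequence on the X and 16.8 per Mb on the autosomes, and the median signal was 108.5 on the X and 87.9 on the autosomes. By arm, the density on the long autosomal arms ran from 15.4 per Mb on 3R to 19.1 on 2L, close to that of the X. The intronic share of their peaks ran from 23.3% on 3L to 25.1% on 2L. The females studied carry 2 copies of the X and of each autosome. Chromosome 4 had 5 IDR peaks and none of the intronic ones, a count of 0 that allows up to 0.325% of the 922. It holds 0.575 Mb of the eligible sequence, or 1.09%.

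Sequence at the intronic summits differed from that at promoters in motifs of promoter and insulator proteins. In windows of 201 bp around each summit, 19 short motifs were searched on both strands, and 5 of them (26.3%) differed between intronic and promoter peaks (two-sided Fisher's exact test, adjusted by Benjamini-Hochberg over the 19), 3 lower (15.8%) and 2 higher (10.5%). The DRE core TATCGATA, an element of housekeeping promoters bound by DREF and BEAF-32, was in 8 intronic windows (0.868%), against 150 promoter windows (6.45%; odds ratio 0.127, exact test, adjusted p = 6.7e-13), beside 0.441% of all eligible intronic windows. GGTCACACT, the site of the promoter factor M1BP, was in 0 of 922 intronic windows, which allows up to 0.325%, against 70 promoter windows (3.01%, exact test, adjusted p = 7.1e-10). This motif was also rare in intronic sequence at large, in 0.0925% of all eligible windows and 0.0566% of weaker intronic regions. CGATA, bound by BEAF-32 and part of its longer site, which also lies inside the DRE core, was in 26.1% of intronic and 38.3% of promoter windows (odds ratio 0.570, exact test, adjusted p = 3.1e-10), beside 20.3% of all eligible windows. The GC content was 39.6% in intronic, 40.2% in promoter and 40.8% in intergenic windows. It was 42.1% in windows of the weaker intronic regions and 40.2% in all eligible windows.

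The 2 motifs more frequent at intronic summits were AGATAA, the GATA factor site, in 15.8% of intronic and 11.4% of promoter windows (odds ratio 1.47, exact test, adjusted p = 0.00254), and AGTGCA, in 21.0% of intronic and 13.9% of promoter windows (1.65, adjusted p = 5.8e-06). The motif AGTGCA has the letters of the nuclear receptor core in another order and was included as a control for composition. Whether a nuclear receptor or another factor binds it was not examined, so its frequency cannot be read as a background level. The GATA site was in 11.9% of all eligible windows, and AGTGCA in 12.3%. AGGTCA, the nuclear receptor core itself, was in 4.45% of intronic windows (41 of 922) and 3.18% of promoter windows (odds ratio 1.42, exact test, adjusted p = 0.174), beside 5.19% of all eligible windows. TCAAGGTCA, the extended site of monomeric receptors that contains this core, was in 3 intronic windows and 0 promoter windows (exact test, adjusted p = 0.0723). With the strongest regions of replicate 3 alone, 5 motifs were higher in place of 2. The receptor core was then among them (odds ratio 1.81, exact test, adjusted p = 0.0152), as was its extended site (exact test, adjusted p = 0.0172). With those of replicate 1 alone, the core gave an odds ratio of 1.07 (exact test, adjusted p = 0.837), and with a TSS distance of 250 bp it gave 1.71 (exact test, adjusted p = 0.0220). A match describes the letters in the window and does not show that a factor binds there.

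Against intergenic peaks, 1 of the 19 motifs (5.26%) differed. This was AGNNGGCGC, the core of the site of the insulator protein CTCF, in 4.12% of intronic windows (38 of 922) and 10.9% of intergenic ones (odds ratio 0.353, exact test, adjusted p = 0.00192), beside 3.48% of promoter windows and 1.37% of all eligible windows. The CTCF core windows printed above are in ush, with a peak signal of 248.8, and in Eip75B, an ecdysone-induced nuclear receptor gene, with 182.5. Against the weaker intronic regions, 6 of the 19 (31.6%) were more frequent at intronic IDR peaks and none less. They were GAGAG, bound by GAGA factor (odds ratio 1.56, exact test, adjusted p = 6.4e-08), GTAAACA of forkhead factors (1.98, adjusted p = 3.0e-06), AGTGCA (1.47, adjusted p = 7.1e-05), the CTCF core (2.27, adjusted p = 1.3e-04), CGATA (1.37, adjusted p = 3.2e-04) and AGATAA (1.41, adjusted p = 0.00129). CGATA thus stood lower than at promoters and higher than at weaker intronic sites. GC content was 39.6% in the intronic IDR windows and 42.1% in the weaker ones, and its part in these differences was not tested.

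**Figure D5:**
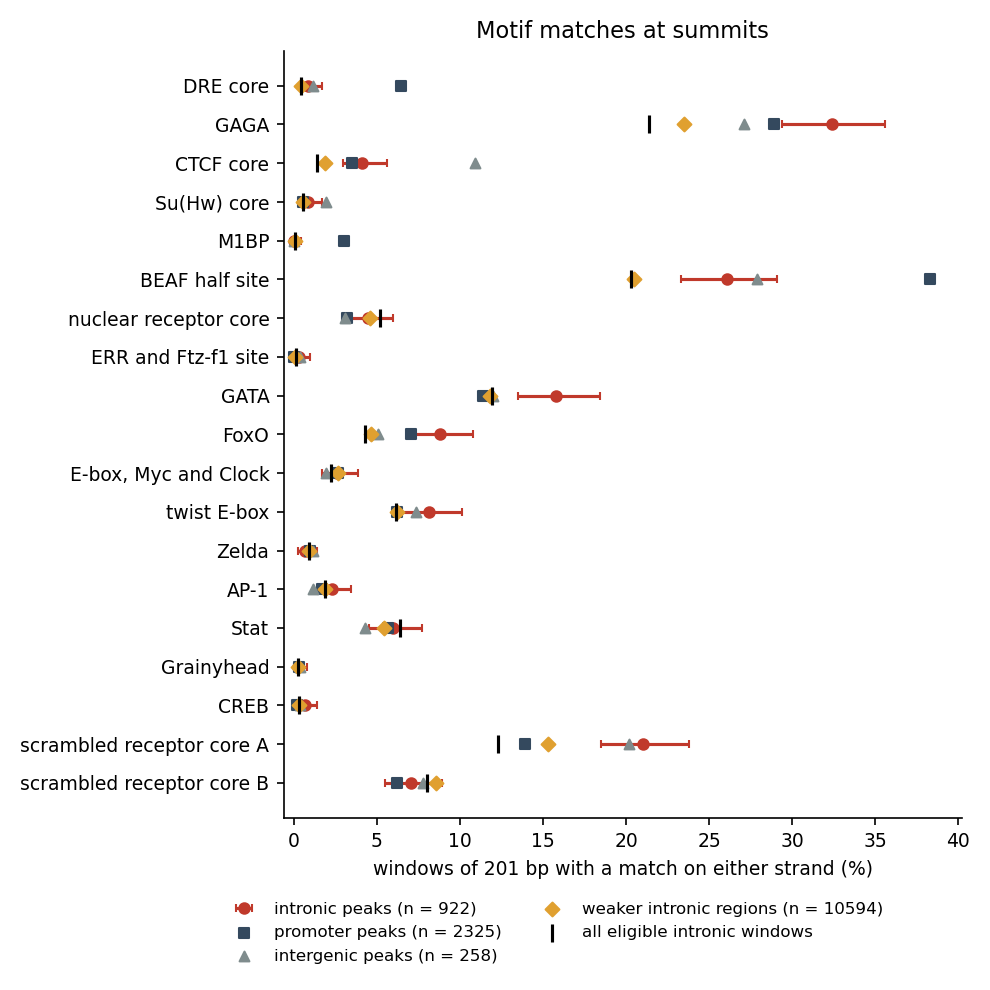
Share of 201 bp windows with at least 1 match on either strand for each of the 19 motifs, in intronic peaks (circles, with exact binomial 95% intervals), promoter peaks, intergenic peaks, weaker intronic regions of the pooled list and all eligible intronic windows. The DRE, M1BP and BEAF motifs are lower in intronic than in promoter peaks, GATA and the scrambled core A are higher, and the CTCF core is at 4.12% in intronic and 10.9% in intergenic peaks.

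A search of all words was added after these results were seen and is a description without a test. Among words of 6 letters in at least 10% of intronic windows, ACAGTG stood furthest above the eligible sequence, in 21.9% of intronic windows, 16.3% of promoter windows, 9.45% of weaker intronic windows and 7.40% of all eligible windows, a ratio of 2.96. The leading words of 8 letters, CCACTGTA (4.88% of intronic and 0.561% of all eligible windows), ACAGTGGG (4.77% of intronic and 0.649% of eligible), ACAGTGGT (3.69% of intronic and 0.549% of eligible) and CACAGTGG (5.42% of intronic and 0.819% of eligible), all contain CCACTGT or its other strand ACAGTGG. This word of 7 letters was in 115 intronic windows (12.5%, 10.4 to 14.8), 6.71% of promoter windows, 9.30% of intergenic windows, 3.59% of weaker intronic windows and 2.39% of all eligible windows.

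The word was most frequent at the strongest sites. It was in 6 of the 20 strongest intronic windows, in 21 of the strongest 100 (21.0%), and in 11.4% of the other 822. Intronic peaks with it had a median signal of 117.0, and those without it 89.8. On the X it was in 19.7% of intronic windows (14.5 to 25.8), and on the autosomes in 10.4% (8.23 to 12.8). It was in 14.0% of the windows in first introns and in 11.6% of those in later introns. The nearest copy lay a median of 55.0 bp from the summit. Of 115, 22 were within 25 bp and 50 within 50 bp, so the copies did not gather at the summit. The printed windows reach only copies within 50 bp of the summit, so they cannot show this spread. Only 16 of the 194 windows with AGTGCA also held the word.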

How the data were processed

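Whole adult females with Hr96 fused to green fluorescent protein were profiled by ChIP-seq in 2 biological replicates, 1 and 3. The labels also name Hr96 as the antibody, and their description of an anti-GFP precipitation is followed here. Per the labels, the authors deposited dm6 peak lists with a signal value per peak, located by the narrowPeak column order, along with the −log10 of a q-value, which the deposited lists hold and which was not used in any comparison, and a summit offset in bp. Per the deposited text lists, both replicates were scored against 1 control file, and the pooled and IDR lists were made from both. Which aligner and caller were run, in which versions and at which IDR threshold, is not given in the sources used here, nor are read totals. The dm3 lists were not used here.

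From these, summits were assigned to TSSs, exons and introns of the Ensembl BDGP6 annotation (release 115) on the 6 main arms, leaving out 5809 transposable elements. Eligible sequence is intronic, outside exons and over 500 bp from every TSS. Peaks were ranked by signal and matched within 100 bp. Where annotated introns overlapped, the shortest gave the length. Fisher's exact tests (two-sided, Benjamini-Hochberg adjustment, threshold 0.05) compared class shares and motif shares. Intervals of shares are exact Clopper-Pearson at 95% and of densities exact Poisson, both for counting error only, with a limit of 3 counts for a count of 0. Tests run across peaks and measure no spread between animals. The motif test was run on simulated sequences with and without a planted motif, and the annotation and matching rules on small made examples. The other exact tests were not run on simulated data.

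Motifs were searched in 201 bp windows on both strands, as exact letters, N standing for any base. The M1BP pattern shares GGTCA with the receptor core. All eligible windows are 262728 tiles of the same length. The 15 gene lists had 775 entries, of which 16 matched no gene and 27 matched by a synonym, and the result of 1 list is not reported here.

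Named genes are the hosts of the 20 strongest intronic peaks, the 10 genes with the most of them and up to 3 hosts per list with the strongest peak. Genes at the TSS limit, mgl, Fas2, dpr6, Stt3A, Ubr3, simj, kay, Gpdh1, Eip75B, arg, lncRNA:enrr and CG32795 were named after their values were seen. The members and lists were chosen with earlier results of these data known. Alternatives varied the TSS distance, the peak set, the replicate, the hosts, the matching distance, the intron order and length rules, and the motif window and comparison set. The work used SciPy 1.17.1, pandas 2.3.3, matplotlib 3.10.9 and numpy 2.4.6 under Python 3.11.15.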

Additional observations from a re-analysis of the deposited data

How the results depend on the processing

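The intronic share of 25.6% was 30.6% with a TSS distance of 250 bp, 18.6% with 1000 bp, and 21.7% among the strongest 1803 peaks; from 1 replicate alone it ranged from 24.9% to 25.4%. The odds ratio for a match in both replicates turned to 1.12 in the strongest 1803 peaks and to 1.04 with a match anywhere in each list, and was 0.875 (exact test, p = 0.0654) at 250 bp. The odds ratio for first introns kept its direction and its side of the threshold except beyond 10000 bp from a TSS, where it was 1.35 (exact test, adjusted p = 0.353), was 2.21 with mixed introns counted as later, and was 3.37 to 3.47 with 1 replicate left out. The median intron length was 9360 bp at 1000 bp, 10792 bp by the longest intron, and 6088 to 7813 bp with 1 replicate left out. Genes with several peaks numbered 61 among the strongest 1803 peaks, which are fewer peaks. Host genes with a promoter peak made up 42.5% at 250 bp, 62.5% at 1000 bp and 36.8% in the strongest 1803. Motifs higher than at promoters numbered 5 at 250 bp, 3 to 5 with 1 replicate left out, 0 against intergenic peaks and 6 against weaker intronic regions, and motifs lower numbered 3 with 1 replicate left out, 1 against intergenic peaks and 0 against weaker regions. Single motifs whose odds ratio changed side were the following. The CTCF core, not called against promoters (1.19, exact test, adjusted p = 0.492), was 0.353 against intergenic peaks (exact test, adjusted p = 0.00192). Against weaker intronic regions the BEAF-32 motif CGATA was 1.37 (exact test, adjusted p = 3.2e-04). The DRE core was 1.96 there, which was not called (exact test, adjusted p = 0.169). Where no cause is named, the cause was not tested. The other comparison sets, the distance bands and limit of 2000 bp, the merging of sites, the counting of transposable elements as genes and the signal comparison with 1 replicate left out were chosen after seeing the data. The other 49 recomputed values of these results kept their direction and their side of the threshold or stayed within the interval or factor of 1.5 used for counts. No paired analysis was possible because all samples are of 1 group. Depth is unknown, so no limit on detectable differences can be set.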

Other observations

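Among the strongest 361 regions of each replicate, 7 intronic ones had no IDR summit within 100 bp. Replicate 1 gave 1, in spen (rank 272, signal 237.4). Replicate 3 gave 6, in CG9921 (rank 125, 160.9), Lsd-2 (rank 200, 130.9), CHES-1-like (rank 248, 119.3), simj (rank 301, 110.1), CG1737 (rank 336, 104.9) and Sxl (rank 360, 101.7). An IDR summit lay 113 bp from the region in spen, 141 bp from that in CHES-1-like, 167 bp from that in simj and 306 bp from that in Lsd-2, and between 557 and 1024 bp from those in CG9921, CG1737 and Sxl. The nearest IDR summit was taken from peaks of any class. It is therefore not shown to be the pooled intronic peak of the gene, which had 418.9 in spen and 317.9 in Lsd-2.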
